A study of Mus musculus with 15 samples.

Results

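Among the 61816 windows of 40 kb on mouse chromosomes 1 to 19, 1398 were called positive in at least 2 of 15 Genome Architecture Mapping (GAM) libraries, and these shared windows are described here. GAM takes thin cryosections through cells, isolates the slice of 1 nucleus that each section contains (a nuclear profile), and sequences the amplified DNA to find which genomic windows lay in the slice. All 15 libraries came from 46C-ES cells, a mouse embryonic stem cell line of strain 129/Ola. The study describes the 46C line as a Sox1-GFP (green fluorescent protein) knock-in, a genotype that all 15 libraries share. The cells were grown with LIF and serum and moved to serum-free ESGRO medium before harvest, with no other treatment given. Each library holds 1 nuclear profile, and all 15 failed the study's quality checks; 7 have names that start with f13 and 8 with f14, and the labels do not say what the prefix stands for. The members were chosen by their row sum, the number of libraries in which a window is positive, so every count of libraries per window below is a description.

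The shared windows made up 2.26% of the autosomal windows, and 10.6% of the 13176 that were positive in any library. Most were at the threshold: 1312 were positive in exactly 2 libraries, 77 in 3 and 9 in 4 or more, against 11778 just outside it that were positive in 1. Windows positive in 3 or more libraries were 0.139% and those positive in 4 or more were 0.0146% of all autosomal windows. The 9 windows at the top had row sums of 15, 7, 7, 5, 5, 4, 4, 4 and 4. Read numbers are not part of the table, which records presence or absence only; the depth is therefore unknown and no counting error can be given for a window. Libraries differed widely in size, from 13 positive autosomal windows in f13d5 and 16 in f14e1 to 2685 in f13e1, and 7 of the 15 had 1000 or more.

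A nuclear profile holds only a small part of a genome, and windows that lie in slices of different nuclei are shared only when separate slices happened to catch them. A sequence that is present many times in the genome but only once, or in a few places, in the assembly differs in this respect: reads from any of its copies may be placed in the same window, depending on how reads that fit several places are treated. Mouse chromosomes are telocentric, with the centromere at one end of the chromosome. It lies on arrays of the minor satellite, which carry the binding motif of the centromere protein CENP-B. Longer arrays of the major satellite lie beside them. These arrays and the ribosomal RNA gene clusters are for the most part left out of the assembly, in which the first bases of each autosome are unknown. The reference used here is NCBI Build 37 (mm9) of the strain C57BL/6J, which is not the strain of these cells.

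The window positive in all 15 libraries, chr2:98480001-98520000, contained satellite-like sequence of 2 kinds. A tandem repeat with a period of 234 bases, that of the major satellite, ran over the annotated coding sequence of the predicted gene Gm10800 (chromosome 2, 98506704 to 98507458, minus strand). Adjoining copies matched at 96.7% over the best stretch of 240 bases. In the search over all periods the best value in the same sequence was at 251 bases, with 97.1%, and 234 bases was examined because it is the best period of the array on chromosome 9. The first window of chromosome 9 (chr9:3000001-3040000, row sum 2) is an assembled array of the same period, and it serves as the comparison. The copy at chr2:98506706-98506939 and its best counterpart at chr9:3014109-3014342 (minus strand), equal at 224 of 234 bases or 95.7%, are shown because they relate this window to the assembled array. No satellite consensus was used, so the name rests on the period and on likeness between both windows. Capitals mark in the first the bases that differ from the adjoining copy on chromosome 2, and in the second those that differ from the first.

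chr2 copy: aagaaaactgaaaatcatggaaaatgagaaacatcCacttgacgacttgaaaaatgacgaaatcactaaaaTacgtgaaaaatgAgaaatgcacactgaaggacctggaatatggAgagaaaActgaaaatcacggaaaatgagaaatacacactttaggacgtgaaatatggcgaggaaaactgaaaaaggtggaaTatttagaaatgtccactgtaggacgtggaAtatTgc

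chr9 copy: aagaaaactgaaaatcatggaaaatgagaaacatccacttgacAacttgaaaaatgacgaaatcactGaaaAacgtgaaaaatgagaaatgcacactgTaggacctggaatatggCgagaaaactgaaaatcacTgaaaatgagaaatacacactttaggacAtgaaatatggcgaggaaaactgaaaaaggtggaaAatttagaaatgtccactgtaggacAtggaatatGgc

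A second tandem repeat in the chromosome 2 window, between Gm10801 (98502394 to 98504240, plus strand) and Gm10800 and outside annotated genes, had a period of 120 bases, the period of the minor satellite. Its best stretch matched at 88.3%. The unit held the core of the CENP-B motif (the CENP-B box), searched on both strands with its variable bases left free. The same unit, with the motif, was found in the window with the next highest row sum, chr6:103560001-103600000, in an intron of Chl1, which encodes a neural cell adhesion molecule. A related unit on chromosome 4, without the motif, lay in a window positive in no library. The 3 units, chr2:98505140-98505259, chr6:103599132-103599251 (minus strand) and chr4:64158851-64158970 (minus strand), are shown with matches to the motif in capitals.

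chr2 unit: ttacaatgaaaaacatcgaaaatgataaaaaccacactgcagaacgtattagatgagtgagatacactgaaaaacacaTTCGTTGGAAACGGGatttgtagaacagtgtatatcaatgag

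chr6 unit: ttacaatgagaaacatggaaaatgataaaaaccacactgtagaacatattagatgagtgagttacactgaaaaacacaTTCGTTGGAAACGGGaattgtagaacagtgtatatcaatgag

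chr4 unit: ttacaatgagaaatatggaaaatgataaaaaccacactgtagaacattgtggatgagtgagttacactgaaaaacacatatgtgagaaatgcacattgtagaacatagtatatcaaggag

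The chromosome 6 unit was equal to the chromosome 2 unit at 95.0% of 120 bases and the chromosome 4 unit at 82.5%. The motif was present in 542 of the 61816 autosomal windows (0.877%), and 9 windows held it at least 2 times. The chromosome 2 window held 6 matches, more than any other, and the chromosome 6 window held 1. The other 8 windows with at least 2 matches had row sums of 0 or 1. A match to these letters is a description of the window and does not show binding of the protein.

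Most assembled windows that matched these units were positive in no library. Of all autosomal windows, 2.26% were shared. The matching windows include the chromosome 2 window, which supplied the units and was chosen by its row sum. No excess over 2.26% is therefore read from the percentages below. The 234-base unit matched 24 autosomal windows (blastn, e-value up to 1e-10), of which 2 (8.33%) were shared, 18 were positive in no library and 1 was among the 9. The window with the most of it, the first of chromosome 9, had 38417 of its bases matched and a row sum of 2 (f13e1 and f13g2). The first window of chromosome 11 had 4744 bases and a row sum of 1, and that of chromosome 4 had 1692 bases and a row sum of 0. The chromosome 2 window had 1676. The 120-base unit matched 9 autosomal windows, 2 of them (22.2%) shared, and these were the windows on chromosomes 2 (930 bases) and 6 (210 bases). A further 6 of the 9 were positive in no library, including the one on chromosome 4 with 360 matched bases. The units were taken from the chromosome 2 window itself, so its own matches to them follow from that choice. How reads that map to several places were treated is not given in the sources used here, and a row sum of 0 at a repeated sequence cannot be read as its absence from the slices.

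**Figure D1:**
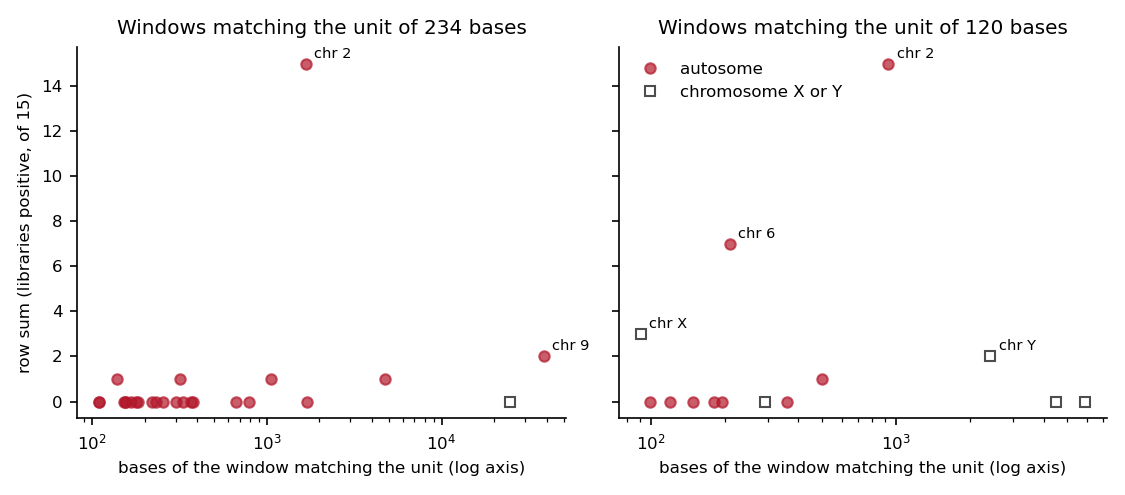
Row sum of each window (vertical axis, number of the 15 libraries) against the bases of the window that match the 234-base unit (left) or the 120-base unit (right) of the chromosome 2 window, on a log axis; points are autosomal windows and squares windows of chromosomes X and Y. The chromosome 2 window stands at 15 in both panels and the chromosome 6 window at 7 on the right, while the chromosome 9 window has the most matched bases on the left at a row sum of 2.

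A window linked to ribosomal RNA by its gene symbol lay on chromosome 17. The window chr17:39960001-40000000 was positive in 5 libraries (f13a6, f13g2, f14c2, f14f2 and f14g6), and its single annotated gene was AY036118, listed as a pseudogene (39985048 to 39985772, minus strand). In the RefSeq annotation of a later assembly (GRCm38.p6), the gene of this symbol overlaps Rn18s-rs5, a pseudogene related to the 18S ribosomal RNA. The match between annotations is by symbol only. A stretch of 6 kb, from 39980001 to 39986000, had a GC content of 64.1%, with 55.9% to 71.6% in each kb, while every other kb of the window lay between 31.2% and 46.2%. Of the 24-base words in this stretch, 78.8% were found once in the whole reference, against 52.8% in the rest of the window. The whole window had 1807 words, among those found 2 to 20 times, in common with a window of the same chromosome starting at 39720001, which was positive in no library. The end of the stretch that carries AY036118 (chr17:39985533-39985772, minus strand, GC content 70.4%) is shown as an example of this base composition, with no capitals.

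chr17 AY036118: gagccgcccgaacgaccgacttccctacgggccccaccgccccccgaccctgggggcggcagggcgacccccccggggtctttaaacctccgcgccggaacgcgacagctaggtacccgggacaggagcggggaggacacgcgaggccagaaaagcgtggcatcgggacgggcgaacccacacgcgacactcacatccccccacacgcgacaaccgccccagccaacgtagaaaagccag

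The longest match to this stretch at over 95% identity was 901 bases at 98.2% in the window starting at 3120001 on chromosome 6, which was positive in no library. Annotated ribosomal RNA genes elsewhere, most of them named as 5S genes, lay in 259 autosomal windows, of which 4 were shared, 57 were positive in 1 library and 198 in none. They were annotated in 0.287% of shared windows and 0.433% of all complete windows, a difference of few windows from which nothing is read. The 3 windows of the 5S cluster on chromosome 8, with 11 to 23 such genes each, had row sums of 0.

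In the remaining 6 of the 9 windows the measures above found no satellite unit and no annotated ribosomal RNA gene. No reference sequence of ribosomal RNA was compared with them, so such sequence without an annotation could have been missed. On chromosome 11, chr11:3040001-3080000 (row sum 7) and chr11:3080001-3120000 (row sum 5) lay 0.04 and 0.08 Mb from the first assembled base, and both overlapped Sfi1 (3031853 to 3093466, minus strand), which encodes a centrin-binding protein of the centrosome. The second also overlapped Drg1, which encodes a GTP-binding protein, and Eif4enif1, which encodes a transporter of the translation factor eIF4E. The first contained a repeat of 25 bases, with adjoining copies equal at 100% over its best stretch, in an intron of Sfi1. The start of it, chr11:3051790-3051889, is shown with alternate copies in capitals.

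chr11 repeat: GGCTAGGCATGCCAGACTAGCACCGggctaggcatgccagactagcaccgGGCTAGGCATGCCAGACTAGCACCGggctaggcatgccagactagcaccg

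The same window had 914 of its 24-base words in common with a window on chromosome 5 (33040001) and 349 with one on chromosome 10 (80640001), among words found 2 to 20 times in the reference, and neither was positive in any library. Libraries f13e1, f14b5 and f14g3 were positive in both chromosome 11 windows. The window directly before them, chr11:3000001-3040000, was positive in 1 library and had 4744 bases that matched the 234-base unit. Sfi1 was among the gene symbols listed for this report as multi-copy families. Copies of it that are missing from the assembly would not be seen by these measures, so whether these windows are a multi-copy locus was not tested.

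On chromosome 5, chr5:3280001-3320000 (row sum 4: f13e1, f13g2, f14c2 and f14g4) lay 0.28 Mb from the first assembled base and overlapped no annotated gene. It had 6328 words in common with a window on chromosome 13 (3280001) and 3019 with one on chromosome 12 (3160001), both also near the centromeric end and both positive in no library. In all, 27.7% of its different words were found 2 to 20 times in the reference, the highest percentage of the 9. Part of this window was thus assembled in several places rather than once.

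For the last 3, these measures found no satellite unit, no ribosomal RNA gene and no large duplicate elsewhere. The window chr5:18080001-18120000 (row sum 4: f13a6, f13e1, f14g3 and f14g4) overlapped no gene and shared at most 25 such words with any other window. The window chr16:94000001-94040000 (row sum 4: f13a6, f13g2, f14b5 and f14e5) overlapped Cldn14, which encodes a claudin of tight junctions, and shared at most 30. The window chr8:72960001-73000000 (row sum 4: f13a6, f13e5, f13g3 and f14g4) overlapped Crtc1, which encodes a CREB-regulated coactivator, and Klhl26, which encodes a kelch-like protein. It held a local tandem repeat in an intron of Klhl26, shown from chr8:72997622-72997781 with alternate copies of 40 bases in capitals, and shared 93 words with the window before it on the chromosome, which was positive in 1 library.

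chr8 repeat: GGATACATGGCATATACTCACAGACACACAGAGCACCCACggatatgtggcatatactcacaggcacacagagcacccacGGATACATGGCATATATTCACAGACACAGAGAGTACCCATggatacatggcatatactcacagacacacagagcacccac

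Of the 9 windows, then, those with row sums of 15 and 7 on chromosomes 2 and 6 held satellite-like sequence. The window on chromosome 17, with a row sum of 5, was linked to ribosomal RNA by a gene symbol only. A further 3 lay within 0.28 Mb of the first assembled base. None of the 9 had unknown bases. Copy number within the reference differed with the measure. Words of 24 bases found at least 2 times in the reference made up 22.7% ± 12.5 (SD, n = 9; median 19.7%) of these windows, 16.9% ± 11.8 (SD, n = 1308; median 13.4%) of windows positive in 2 libraries and 17.7% ± 13.3 (SD, n = 11730; median 13.6%) of windows positive in 1, so that the means lay within the spread. Words found 10 or more times in the reference made up 11.7% ± 6.42 (SD, n = 9) of these windows, 11.8% ± 8.75 (SD, n = 1308) of windows positive in 2 libraries and 12.4% ± 9.71 (SD, n = 11730) of windows positive in 1, all without unknown bases. Neither measure sees copies that are missing from the assembly.

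The 9 windows were not held by the same libraries. Library f13a6 was positive in 7 of them and f13e1, f13g2 and f14g4 in 6 each, while f13g3, which had the second highest number of positive windows, was positive in 2. The smaller library f14b5, with 249 positive autosomal windows, was positive in 5. The libraries f13d5 and f14e1 were positive in 1 each, the chromosome 2 window. Libraries of both prefixes were positive in all 9.

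**Figure D2:**
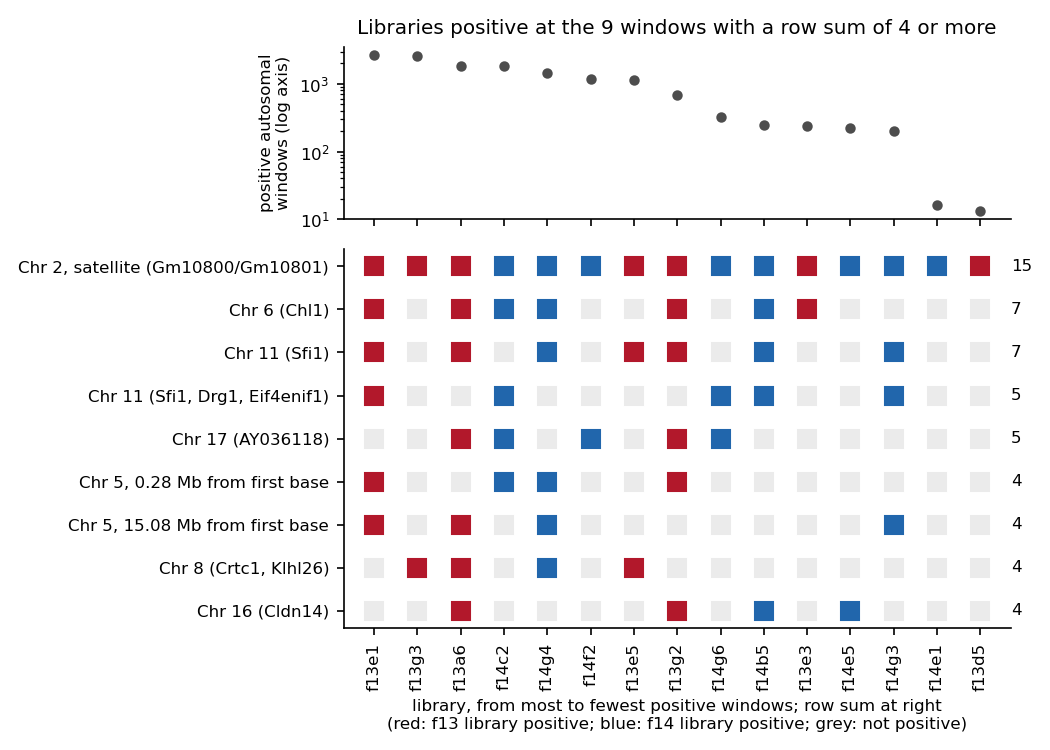
Upper panel, positive autosomal windows of each of the 15 libraries on a log axis; lower panel, the libraries positive (red for f13, blue for f14, grey for not positive) at each of the 9 windows with a row sum of 4 or more, with the row sum at the right. The chromosome 2 window is positive in every library, including those with 13 and 16 positive windows, and no other window is positive in more than 7.

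Calls beside the high windows were uneven. Of the 55 calls that make up these 9 windows, 16 (29.1%) had a call of the same library in the window beside them. For all 1398 shared windows it was 1376 of 2910 calls (47.3%), and for windows positive in 1 library it was 5653 of 11778 (48.0%). The lower percentage owed much to the chromosome 2 window, which gave 15 of the 55 calls and beside which only f13e1 was positive. Counted by window, 2 of the 9 (22.2%), those on chromosomes 6 and 17, had no call of their libraries beside them, against 378 of the 1398 shared windows (27.0%). In the 13 libraries with 100 or more windows the percentage was 34.4% ± 22.0 (SD, n = 13) for shared windows and 34.0% ± 22.4 (SD, n = 13) for windows of that library alone. Compared within each library it was lower in shared windows in 6 of 13, so the direction differed between libraries. The SDs are those between libraries, not of the difference within a library. These percentages were not tested.

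Shared windows were spread along all 19 autosomes, at 0.504% of windows with sequence on chromosome 10 to 4.72% on chromosome 2 (mean 2.24% ± 1.21, SD over 19 chromosomes). Chromosome 2 held 211 of them, including 21 positive in 3 or more libraries. Chromosomes 10, 15, 16 and 7 held 16, 13, 17 and 23. Chromosomes with more positive windows had more shared ones, yet chromosome 2 stood above chromosomes with as many: 16.4% of its positive windows were shared, against 12.4% on chromosome 8 and 10.9% on chromosome 19, where 28.7% and 28.9% of windows were positive in at least 1 library compared with 28.8% on chromosome 2. On chromosome 2, f14f2 was positive in 10.0% of windows, while it was positive in 1.96% of all autosomal windows with sequence. It held 91 of the 211 shared windows there. On every chromosome but 2, 1 library held over 50% of the shared windows, up to 10 of 13 for f14c2 on chromosome 15 and 66 of 87 for f13g3 on chromosome 4.

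Toward the centromeric end the shared windows were slightly more frequent. The first 5 Mb of assembled sequence, which starts at base 3000001 on every autosome, held 77 of 1398 (5.51%), against 3.95% of all autosomal windows with sequence and 4.93% of windows positive in 1 library. Between the 13 larger libraries the percentage had an SD of 4.49 percentage points, and the difference is smaller than that. This SD is a spread between single libraries and not an error of the pooled percentage. The difference was not tested. Divided into 10 equal parts, the assembled chromosomes had 3.44% of windows shared in the part at the centromeric end, the highest of the 10, and between 1.76% and 2.91% in the others. That part also had the highest percentage of windows positive in any library, 27.6% against 18.8% to 23.3%, so the peak is not particular to shared windows. The median distance from the first assembled base was 67.2 Mb for shared windows and 64.1 Mb for all windows with sequence. The last 5 Mb held 66 shared windows, or 4.72% against 3.98% of all.

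The end of the chromosome was more visible among windows with higher row sums. Of the 86 windows positive in 3 or more libraries, 15 (17.4%) lay in the first 5 Mb, compared with 62 of 1312 (4.73%) positive in 2. These 15 were on 6 chromosomes, with 4 each on chromosomes 2 and 19, 3 on chromosome 5, 2 on chromosome 11 and 1 each on chromosomes 3 and 8. On chromosome 2 they included a pair over Fam107b from 3600001 to 3680000, and on chromosome 19 a window over Men1, the gene of the tumour suppressor menin, from 6320001 to 6360000. Over all shared windows the first 5 Mb held 18 on chromosome 5, 13 on chromosome 2 and 12 on chromosome 19, of 121 to 125 windows each, and none on chromosomes 4, 10, 14 and 17. Chromosome by chromosome the excess was therefore uneven, and no test was made of it. Only on chromosome 9 was the very first assembled window shared.

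**Figure D3:**
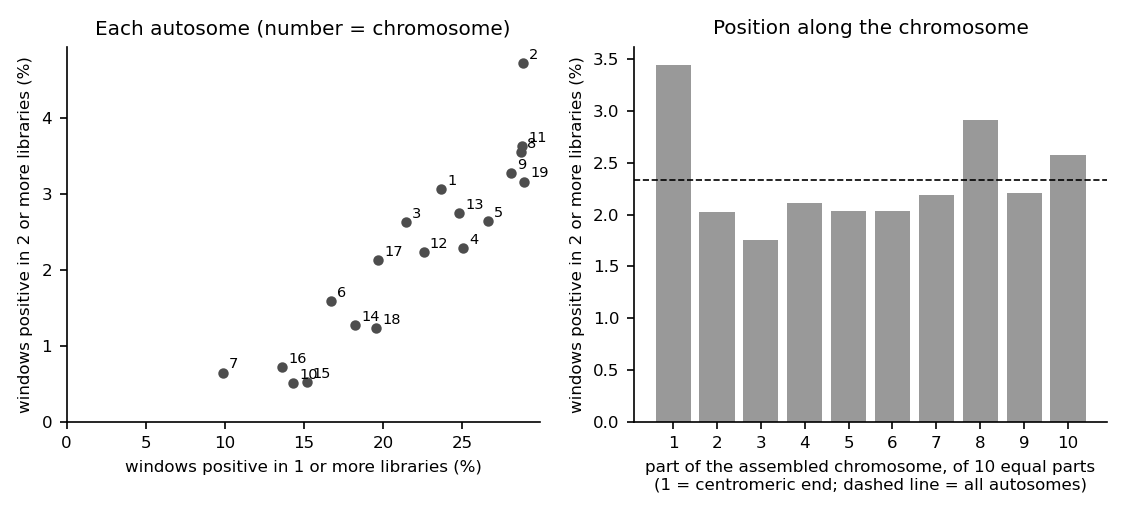
Left, percentage of windows with sequence that were positive in 2 or more libraries against the percentage positive in 1 or more, 1 point per autosome; right, percentage of windows shared in each of 10 equal parts of the assembled chromosome, counted from the centromeric end, with a dashed line at the value for all autosomes (2.33%). Chromosome 2 is highest on the left at 4.72%, and the part at the centromeric end is highest on the right at 3.44%. That part also had the highest percentage of windows positive in 1 or more libraries (27.6%, not drawn).

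Most shared windows had no shared window directly beside them, where 2.26% of all autosomal windows were shared. They formed 1211 runs of directly adjacent windows, of which 1059 were a single window and 127 a pair, and 339 shared windows (24.2%) had a shared neighbour. Allowing a gap of 1 window raised this to 37.6%. For windows positive in 1 library the share with a neighbour of the same class was 55.6%, in a class that holds 19.1% of all autosomal windows. Windows positive in 3 libraries had a shared neighbour more often, in 39 of 77 (50.6%), than those positive in 2 (22.5%). A window with more libraries has more calls that can continue into the next window, so nothing is read from this contrast. Counted by call, the same library was positive beside 48.5% of calls at windows positive in 3 libraries and 47.6% at windows positive in 2. Of the 187 adjacent pairs of shared windows, 93 (49.7%) had exactly the same libraries and 128 (68.4%) had at least 2 libraries in common. Only 4 had none in common.

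The longest runs were 2 of 5 windows and 6 of 4. The first, chr5:18000001-18200000, contained no protein-coding gene and included the window of row sum 4 described above. Library f13e1 was positive in all 5 windows, f13a6 in 4 and f14g4 in 3. The second, chr19:44800001-45000000, lay over Pax2, which encodes a developmental transcription factor, and was positive in f13e1 throughout and in f14f2 in 4 of 5 windows. Of the 6 runs of 4 windows, the first 3 in order of chromosome and position are given, all on chromosome 2. The run from 19320001 to 19480000 held Ptf1a, a transcription factor gene of the pancreas, and was positive in f13e1 throughout and f13a6 in 3 windows. That from 19920001 to 20080000 overlapped Etl4 and was positive in f13e1 throughout and f14g6 in 3. That from 91400001 to 91560000 overlapped 6 protein-coding genes, among them F2, which encodes prothrombin, and Atg13, which encodes an autophagy protein, and was positive in f13g3 throughout. Library f13e1, the one with the most positive windows, had a part in each of these 5 runs.

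Which libraries shared windows followed their size. At least 2 libraries with 1000 or more windows were positive in 1049 of the shared windows (75.0%), exactly 1 in 319 (22.8%) and none in 30 (2.15%). Library f13e1 held 503 of the 1398 and f13g3 held 489, while f13d5 held 2 and f14e1 held 6. As a share of a library's own windows, between 18.1% in f13g2 and 31.2% in f14e5 were shared among the 13 larger libraries (median 20.1%). For each library this stood beside the percentage of all windows without unknown bases that any other library was positive in, and the ratio of both had a median of 1.02 among the 13, from 0.858 in f13g2 to 1.43 in f14e5. Of the shared windows, 756 (54.1%) were held by libraries of both prefixes, 479 (34.3%) by f13 libraries alone and 163 (11.7%) by f14 libraries alone. The prefixes differ in library size. The largest f13 libraries, f13e1 and f13g3, had 2685 and 2606 positive autosomal windows, and the largest f14 library, f14c2, had 1829. Nothing is therefore read from the difference between 479 and 163.

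Of the 105 pairs of libraries, 79 shared a window other than the 9 high ones, and 61 shared 5 or more windows. The pair with the most was f13e1 and f13g3, with 124 windows, which were 4.62% of the windows of f13e1 where f13g3 was positive in 4.36% of all complete windows. The next were f13e1 with f14c2 (98 windows), f13a6 with f13e1 (80), f13e1 with f14g4 (73) and f13g3 with f14c2 (71). In these 5 pairs the number shared was 0.895 to 1.20 times the product of the coverages of both libraries. The median of this ratio over the 61 pairs was 1.11.

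Among the 61 pairs that shared 5 or more windows, a few had much higher ratios, and each of these held at least 1 library with under 1000 windows. Some pairs with fewer shared windows, such as f13d5 with f14e1, reached higher ratios still on 1 to 3 windows and are not ranked. Libraries f14b5 and f14g3 shared 9 windows, 10.9 times the product of their coverages, and f14b5 and f14e5 also shared 9, 9.83 times. Without the 9 high windows these pairs shared 6 and 7. The next ratios were 4.65 for f14g3 with f14g6 (5 windows, of which 3 were not among the high ones), 3.48 for f14e5 with f14f2 (15 windows) and 3.16 for f13a6 with f13e3 (23 windows). With coverage taken chromosome by chromosome, the ratio of f14e5 with f14f2 fell from 3.48 to 1.62. Both were concentrated on chromosome 2, where f14e5 was positive in 1.57% of windows compared with 0.368% of all autosomal windows with sequence. The other 4 pairs had ratios of 8.05, 10.2, 3.51 and 3.12 by this measure.

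**Figure D4:**
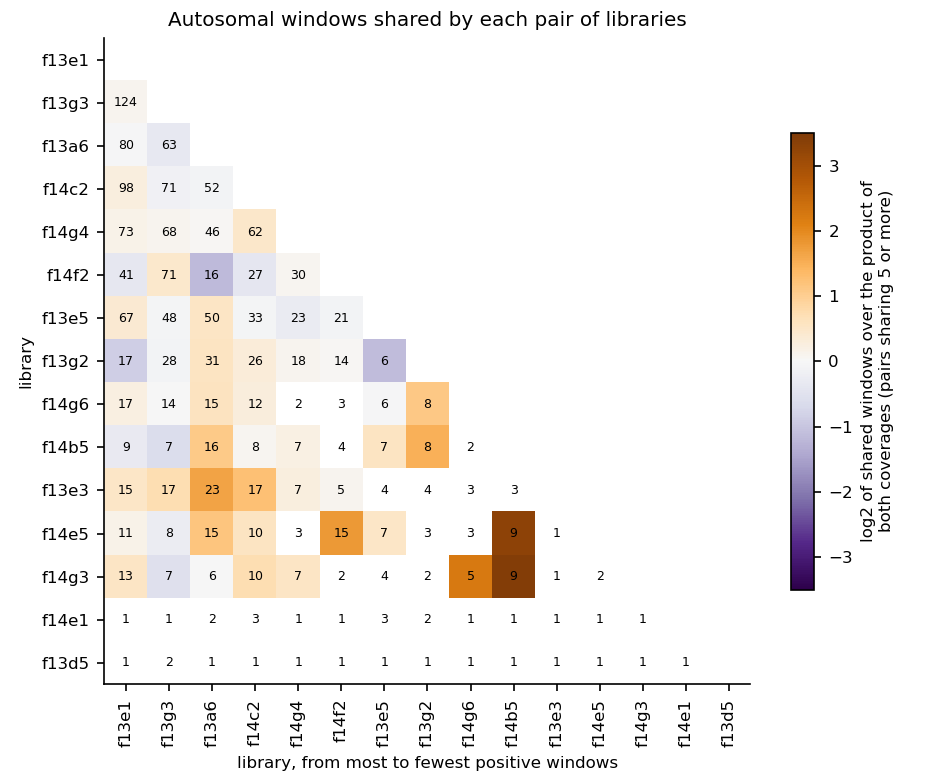
Number of autosomal windows shared by each pair of the 15 libraries (printed), with libraries on both axes ordered from most to fewest positive windows; colour gives, for pairs sharing 5 or more windows, log2 of the number shared over the product of both coverages. Large libraries share the most windows, up to 124, at ratios near 1, and the darkest squares are f14b5 with f14g3 and with f14e5.

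Windows positive in exactly 3 libraries, 77 in number, came from 49 different combinations of libraries, 32 of which occurred at 1 window. The most frequent combination was f13e1, f14c2 and f14g4, at 6 windows on 3 chromosomes and never adjacent, followed by f14c2, f14f2 and f14g4 at 4 windows of 1 chromosome. All combinations at 3 or more windows included at least 1 library with 1000 or more windows.

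Whether windows shared in one set of libraries recurred in another was tested on libraries that had no part in choosing them. The 526 windows positive in 2 or more f13 libraries were compared with all other autosomal windows in each of the 8 f14 libraries. The other windows include those made up of unknown bases only, which cannot be positive and so lower their percentage. On average 1.50% of the chosen windows were positive, against 1.10% of the others, a difference of 0.393 ± 0.328 percentage points (SD, n = 8; p = 0.0234 in an exact two-sided permutation test that flips the sign of each library's difference, adjusted p = 0.0469 over both directions). The chosen windows were higher in 7 of 8 libraries and lower in f14f2 (1.71% against 1.90%). In the other direction, 189 windows positive in 2 or more f14 libraries were positive at 3.17% in the 7 f13 libraries, against 2.13% for the others. That difference, 1.05 ± 1.91 percentage points (SD, n = 7; p = 0.156 in the same exact test, adjusted p = 0.156), was within the spread between libraries, with 5 of 7 higher, f13e5 lower at 1.59% against 1.85% and f13g3 lower at 2.12% against 4.22%. In f14e1 and f13d5 the only positive chosen window was the chromosome 2 window, positive in all 15 libraries, so their direction rests on it. The smallest p these designs allow is 0.00781 for 8 libraries and 0.0156 for 7.

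The difference for the f14 libraries was close to the threshold and rested on a few windows. Among windows without unknown bases the difference was 0.359 percentage points (exact sign-flip permutation test, adjusted p = 0.0625). With any 1 f14 library other than f14f2 left out, the adjusted p lay above 0.05. Leaving out windows positive in 3 or more libraries of the choosing prefix, a choice that does not use the tested libraries, left 509 windows and a difference of 0.0746 percentage points for the f14 libraries (exact sign-flip permutation test, p = 0.516), and 177 windows and a difference of -0.188 percentage points for the f13 libraries (p = 0.734). Leaving out only the chromosome 2 window gave 0.205 (p = 0.117) and 0.534 (p = 0.563), but that window is positive in every tested library, so its removal lowers each difference by construction. With chosen and other windows compared within each chromosome, the difference for the f14 libraries was 0.437, higher in all 8 (exact sign-flip permutation test, p = 0.00781, adjusted p = 0.0156). The chosen windows here still included the chromosome 2 window, which is positive in every tested library and so raises each difference. In f14e1 it was the only chosen window that was positive.

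**Figure D5:**
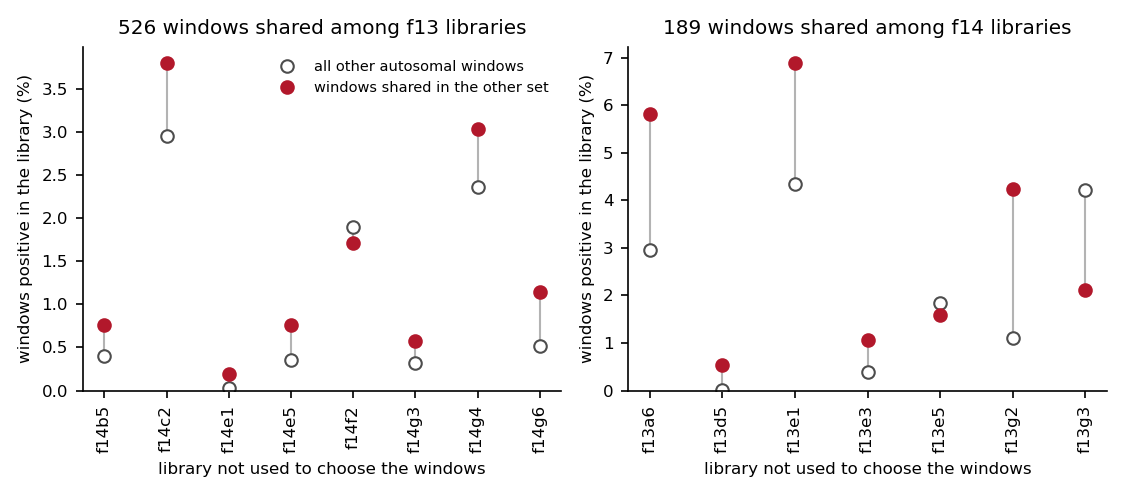
Percentage of windows positive in each library that was not used to choose them, for windows shared among libraries of the other prefix (filled) and for all other autosomal windows (open), with a line joining both values of a library. Filled points are above open ones in 7 of 8 f14 libraries (left, 526 windows) and 5 of 7 f13 libraries (right, 189 windows). In f14e1 and f13d5 the only positive chosen window is the chromosome 2 window, which is positive in all 15 libraries.

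In base composition and gene content the shared windows were close to the rest. GC content was 41.9% ± 3.75 (SD, n = 1394) in shared windows without unknown bases, 42.0% ± 3.95 (SD, n = 11730) in windows positive in 1 library and 41.9% ± 4.11 (SD, n = 46461) in windows positive in none. Words of 24 bases found 10 or more times in the reference made up 11.7% of shared windows and 13.7% of all complete windows, and 10.8% of windows positive in 3 libraries. A gene was annotated in 66.4% of shared windows and in 62.4% of all, and a protein-coding gene in 59.1% and 55.6%.

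Multi-copy gene families were counted because they, too, have near-identical copies. Olfactory receptor genes lay in 17 shared windows (1.22% against 1.15% of all complete windows) and vomeronasal receptor genes in 4 (0.287% against 0.722%). A single window of these receptors was positive in 3 libraries, with Olfr147 and Olfr901 on chromosome 9 from 38200001 to 38240000. Zinc finger genes of the Zfp series lay in 10 (0.717% against 0.871%), cytochrome P450 genes in 3 (0.215% against 0.260%), and beta-defensin genes (Defb21 and Defb29, on chromosome 2) in 1 (0.0717% against 0.0436%). No shared window held a histone, UDP glucuronosyltransferase, Speer or Skint gene. These families lay in 12 to 47 windows each, too few to show a lower share where 2.26% of all autosomal windows were shared. Predicted genes with Gm names lay in 219 (15.7% against 12.9%). These percentages are descriptions of the members and were not tested.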

How the data were processed

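The authors deposited 1 segregation table with a call of 1 (present) or 0 (absent) for each 40 kb window and library, 68162 windows in all. Per the labels, reads were processed with Bowtie2 2.1 and mm9. For multiplex-GAM, the study's methods describe removal of PCR duplicates and calling of windows with GAMtools at a fixed read threshold; whether it held for these libraries is not given in the sources used here. No column was left unmapped. The 15 libraries formed 1 group, and nothing says that they are independent cultures. The members, lists and tests were chosen with earlier results of these data known.

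Calls were used as deposited. Windows named are all those with a row sum of 4 or more with their genes, the 5 longest runs, and the 5 library pairs with most shared windows or highest ratio; windows holding the satellite units, receptor genes or the first 5 Mb were named after their values were seen. Repeated words were counted on both strands over the reference, on 1 word in 16 for all windows and on every word for the 9 high windows. Tandem repeats were searched at periods of 20 to 300 bases over stretches of 240 bases. Genes came from GENCODE vM1. The held-out comparison used exact sign-flip permutation tests with Benjamini-Hochberg adjustment and a threshold of 0.05, and both it and the repeat search were first tested on simulated data. Python 3.11.15, numpy 2.4.6, pandas 2.3.3, numba 0.67.0, matplotlib 3.10.9 and blastn 2.17.0 were used.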

Additional observations from a re-analysis of the deposited data

Results flagged for a closer look

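Windows on chromosomes that the comparisons above did not use were also positive in 2 or more libraries. Chromosome X held 58 such windows of 4167 (1.39%), of which 3 were positive in 3 libraries. One of these, from 139880001 to 139920000 (f13e1, f14e5 and f14g4), matched the 120-base unit of the chromosome 2 window over 91 bases and had 44 words in common with the chromosome 6 window of row sum 7. Chromosome Y held 1 shared window, from 2760001 to 2800000 (f14f2 and f14g4), among 398, and 2425 of its bases matched the same unit. The windows before it, with 5888 and 4485 matched bases, were positive in no library. The 1 window of the mitochondrial genome (chromosome M) was positive in all 15 libraries. None of the 1780 windows on unplaced sequences was positive in any library. No control library was analysed here.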

How the results depend on the processing

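The number of shared windows was 86 at a threshold of 3 libraries and 9 at 4, and stayed within 1.5 times of 1398 with chromosome X, without unknown bases, with runs counted as 1 and without the smallest libraries. Leaving out 1 library at a time gave 935 (without f13e1) to 1397 windows, 20.4% to 25.1% with a shared neighbour and 4.80% to 7.37% in the first 5 Mb. A gap of 1 window raised the percentage with a neighbour from 24.2% to 37.6%. The first 10 Mb held 10.4% of shared windows, against 7.90% of all, and the first 5 Mb held 17.4% of those positive in 3 or more libraries. Repeated sequence made up 8.39% with words of 32 bases and 8.26% at 100 or more occurrences. Calls of the recurrence were taken from p adjusted over both directions. In f14 libraries it lost the call with windows free of unknown bases (0.359, adjusted p = 0.0625) and without the smallest libraries (0.429, adjusted p = 0.0625). It was 0.0428 percentage points (p = 0.25) when 1 f13 library sufficed to choose a window, 0.205 without the chromosome 2 window and 0.0746 without windows positive in 3 or more f13 libraries; the last 2 choices were made after seeing the data. Without all windows of row sum 4 or more it was -0.162 (p = 0.164), and in f13 libraries -0.704 (p = 0.0156), but this removes windows by calls of the tested libraries themselves and so lowers the difference by construction, as leaving out the chromosome 2 window does. In f13 libraries it was -0.188 without windows positive in 3 or more f14 libraries. Leaving out 1 tested library gave 0.328 to 0.476 (exact sign-flip permutation tests, adjusted p from 0.0312 to 0.0938, above 0.05 without any library but f14f2) and 0.703 to 1.57. The cause of these changes was not tested otherwise. The recurrence test paired chosen and other windows within each library. No pairing of libraries between groups was possible because the libraries form 1 group. The depth behind a call is unknown, so absence from a library is not shown.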
